A study of Homo sapiens with 10 samples.

Results

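The antioxidant and ferroptosis genes described here are 37 genes, chosen by symbol, out of 54628 gene symbols in the count table. They take in the regulators of the transcription factor NRF2, the enzymes that make and use glutathione, the thioredoxin system, the suppliers of NADPH and the lipid enzymes of ferroptosis. They were followed by sequencing of polyadenylated RNA in NK-92, a human lymphoma line of natural killer cell origin. The treated cells had 500 µM DFO (deferoxamine, which chelates iron) for 6 h or 24 h, or 10 µg/mL PPMX-T003 (T003) for the same times. PPMX-T003 is an antibody that binds transferrin receptor 1, the receptor that brings transferrin-bound iron into cells. They were set against untreated cells collected at 0 h. All groups shared 1 medium, Artemis Medium-1 containing human serum at 2%, and each of the 5 groups had 2 libraries. The untreated libraries are labelled 0 h only, so the agent and the hours in culture cannot be told apart in comparisons with untreated cells. The same holds for 24 h against 6 h of an agent, since no untreated cells are labelled 6 h or 24 h. The labels name no isotype antibody group, and do not say whether the 2 libraries of a group came from separate cultures, so p-values measure the spread between these libraries, which may be technical.

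NRF2, encoded by NFE2L2, is held in the cytoplasm and degraded through KEAP1. When KEAP1 is modified by oxidants or electrophiles, NRF2 enters the nucleus, pairs with small MAF proteins such as MAFG and switches on genes that carry antioxidant response elements. BACH1, a repressor that senses haem, occupies the same elements and keeps those genes low. Ferroptosis is a form of cell death driven by iron-dependent peroxidation of membrane lipids. Glutathione, built from cystine that enters through SLC7A11, feeds the peroxidase GPX4, which reduces those lipid peroxides.

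The libraries held between 107117892 and 143575614 estimated counts, and 20125 genes had enough counts to be tested. TFRC, which encodes transferrin receptor 1 and whose mRNA is stabilised when cells are short of iron, was higher in every treated library: 834 and 833 CPM (counts scaled to 1e6 per library) after 24 h of DFO and 845 and 847 CPM after 24 h of T003, against 177 and 165 CPM in untreated cells. All 12 natural killer cell markers were detected at 1 CPM or more, with a summed level of 2710 to 2750 CPM after 24 h of DFO, 2850 to 2870 CPM after 24 h of T003 and 2700 to 2730 CPM in untreated cells. Of these 12, 2 were higher and 2 lower (33.3%) after 24 h of DFO, and 5 were higher and 2 lower (58.3%) after 24 h of T003. Between the agents at 24 h, 3 (25%) were lower with DFO. In the same order, 6.7%, 12.5% and 1.34% of all genes tested were called in either direction. Among genes at a mean of 5 CPM or more, the shares were 12.6%, 23% and 2.66%. Of the markers of other cells, MS4A1 and CD79B of B cells, CD163, MARCO and FCN1 of macrophages and EPCAM and KRT18 of epithelium were listed at 0 in all libraries. The macrophage marker CD68 was present at low level, with no call in any comparison. The epithelial and stromal markers summed to 1.38 to 1.65 CPM after 24 h of DFO and 1.99 to 3.29 CPM after 24 h of T003, against at most 1.06 CPM in untreated cells. Most of that was PECAM1, at 3.26 and 1.825 CPM after 24 h of T003 and 0.918 and 0.89 CPM in untreated cells, which was higher after T003 (log2 fold change 1.49, adjusted p = 0.00871). Of 8 T cell markers, 2 had a mean of 1 CPM or more. All 8 summed to 461 to 482 CPM after 24 h of DFO and 458 to 466 CPM after 24 h of T003, against 450 to 453 CPM in untreated cells. CD3E, which natural killer cells and their lines can also transcribe, was the T cell marker with a high level, while CD3G and CD8B were at 0. The part of any marker in the results on antioxidant genes was not tested.

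In untreated NK-92 cells the antioxidant genes spanned a wide range of levels. Per kilobase of the representative transcript, GSTP1, a glutathione transferase, stood highest at 1026 CPM per kb (mean of 2 libraries). TXN, which encodes thioredoxin, was next at 320 CPM per kb, followed by SOD1, the cytosolic superoxide dismutase, at 248 CPM per kb, and the peroxiredoxin PRDX1 at 213 CPM per kb. GPX4 lay at 57.9 CPM per kb and GPX1, the abundant cytosolic glutathione peroxidase, at 71.2 CPM per kb. The subunits of the enzyme that starts glutathione synthesis were level with each other, GCLM at 25.6 and GCLC at 25 CPM per kb, and their order cannot be told from the untreated libraries, which for GCLM alone were 23.9 and 27.4 CPM per kb. The cystine carrier SLC7A11 was low among the members at 8.15 CPM per kb, next to the small MAF gene MAFG at 8.12 and SOD2, the mitochondrial superoxide dismutase with a very long transcript, at 8.08 CPM per kb. At the bottom, MGST2, a microsomal glutathione transferase, had 45 to 80 counts per library, and GPX7, a peroxidase of the endoplasmic reticulum, had 9 to 40 counts per library.

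**Figure D1:**
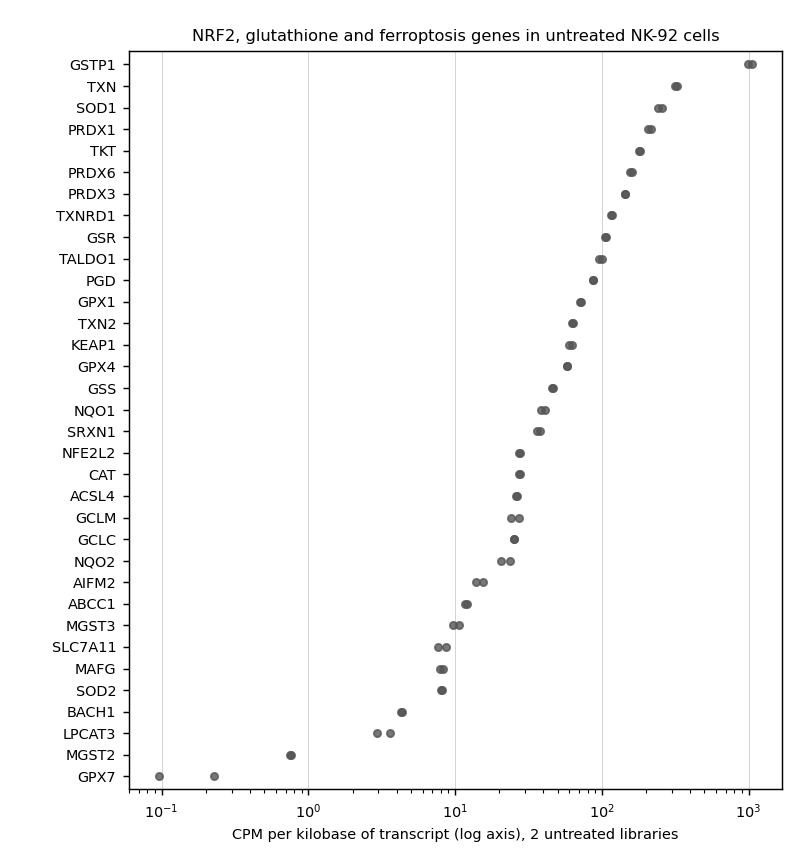
CPM per kilobase of transcript in the 2 untreated libraries (points, log axis) for each tested member, ordered from high to low. GSTP1 lies at the top at 1026 CPM per kb and GPX7 at the bottom at 0.161 CPM per kb, with most members between 8 and 320 CPM per kb.

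The other 3 members could not be tested. HMOX1, which encodes the inducible haem oxygenase and is a well-known NRF2 target, had 3 counts in the first untreated library and 0 in the other 9 libraries. ME1, a malic enzyme that makes NADPH, and MGST1, a microsomal glutathione transferase, had 0 counts in all 10 libraries. The counts are estimates, and ESD, an esterase that cells of most kinds use, is also listed at 0 in all 10 libraries. These genes are therefore only listed at 0, which sets no bound on their expression.

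Promoter sequence was looked up to show which members carry an antioxidant response element close to their start. RefSeq promoters (GRCh38.p14) were matched for 27 of the 37 members. The other 10, SLC7A11, GSS, GSR, MGST2, HMOX1, TXN2, PRDX1, PRDX6, SOD1 and ABCC1, had no matched promoter and were not searched. The element core, spelled TGACNNNGC and searched on both strands in the 250 bases before the start, was found in 6 of the 27 (22.2%), which were GCLM, GSTP1, TXNRD1, PGD, ME1 and AIFM2, and in 11% of all 27305 RefSeq promoters and 11.9% of those of tested genes. No match says only that these letters are not in this window, and a match is not evidence of binding. The stretches around the core are shown for GCLM and TXNRD1, which were lower at 24 h with either agent, and for GSTP1 and AIFM2, whose changes did not pass the test. They run 5′ to 3′ on the gene's strand, with the core, or its reverse complement, in capitals.
GCLM, chr1:93909431-93909489, minus strand: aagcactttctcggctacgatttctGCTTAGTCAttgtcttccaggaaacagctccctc
TXNRD1, chr12:104215655-104215713, plus strand: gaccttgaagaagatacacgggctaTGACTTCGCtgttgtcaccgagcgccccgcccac
GSTP1, chr11:67583721-67583779, plus strand: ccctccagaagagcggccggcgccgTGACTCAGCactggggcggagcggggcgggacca
AIFM2, chr10:70132826-70132872, minus strand: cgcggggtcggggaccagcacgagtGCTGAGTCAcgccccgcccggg
The GCLM core lies within the last 59 bases before the start and reads on the opposite strand, as does that of AIFM2, while those of TXNRD1 and GSTP1 read on the gene's own strand. A second motif, CACGTG (an E-box, both strands), was in the same window of MAFG, GPX1 and PRDX3, 3 of 27 promoters (11.1%) against 6.49% of all promoters and 8.4% of those of tested genes. The TGATGNAAN core of C/EBP-ATF elements was in none of the 27, against 3.18% of all promoters and 1.67% of those of tested genes.

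After 24 h the cystine carrier SLC7A11, both subunits of glutamate-cysteine ligase (GCLM and GCLC), the thioredoxin reductase TXNRD1 and the quinone reductase NQO1 were lower with either agent. BACH1 was lower with DFO, and NQO2 and GSR with T003. ACSL4 and SOD2 were higher with either agent, and ABCC1 with T003. No glutathione peroxidase or transferase, no peroxiredoxin and no NADPH enzyme among the members passed. With DFO, 8 of the 34 tested members passed the threshold (adjusted p under 0.05), 2 higher and 6 lower, which is 23.5% of them, against 6.7% of all genes tested (3.43% higher and 3.27% lower). With T003, 10 of 34 passed, 3 higher and 7 lower, which is 29.4%, against 12.5% of all genes (7.1% higher and 5.44% lower). Well-expressed genes pass more often: among genes at a mean of 5 CPM or more the shares were 25% of 32 members against 12.6% of 9920 genes with DFO, and 31.2% of 32 members against 23% of genes with T003, so the T003 share lay near that of similarly expressed genes. The median log2 fold change of the members was -0.04 with DFO and -0.05 with T003, and that of all genes was -0.0023 with DFO and -0.0069 with T003. Both comparisons use the same 2 untreated libraries. The 7 members that passed with both agents had the same sign in both, and were SLC7A11, GCLM, GCLC, NQO1, TXNRD1, ACSL4 and SOD2. Both DFO libraries lay below both untreated ones for 15 members and above them for 5, against 25.1% and 24.2% of all genes, and both T003 libraries lay below for 20 and above for 5, against 26.9% and 25.9%. Levels are relative to all counts of a library, and fewer cells of a kind and less RNA per cell cannot be told apart. The number called leaned on single libraries. With DFO it was 5 without the second untreated library, without either T003 6 h library or without either DFO 24 h library. With T003 it was 4 without the second untreated library and 5 without the first T003 24 h library.

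**Figure D2:**
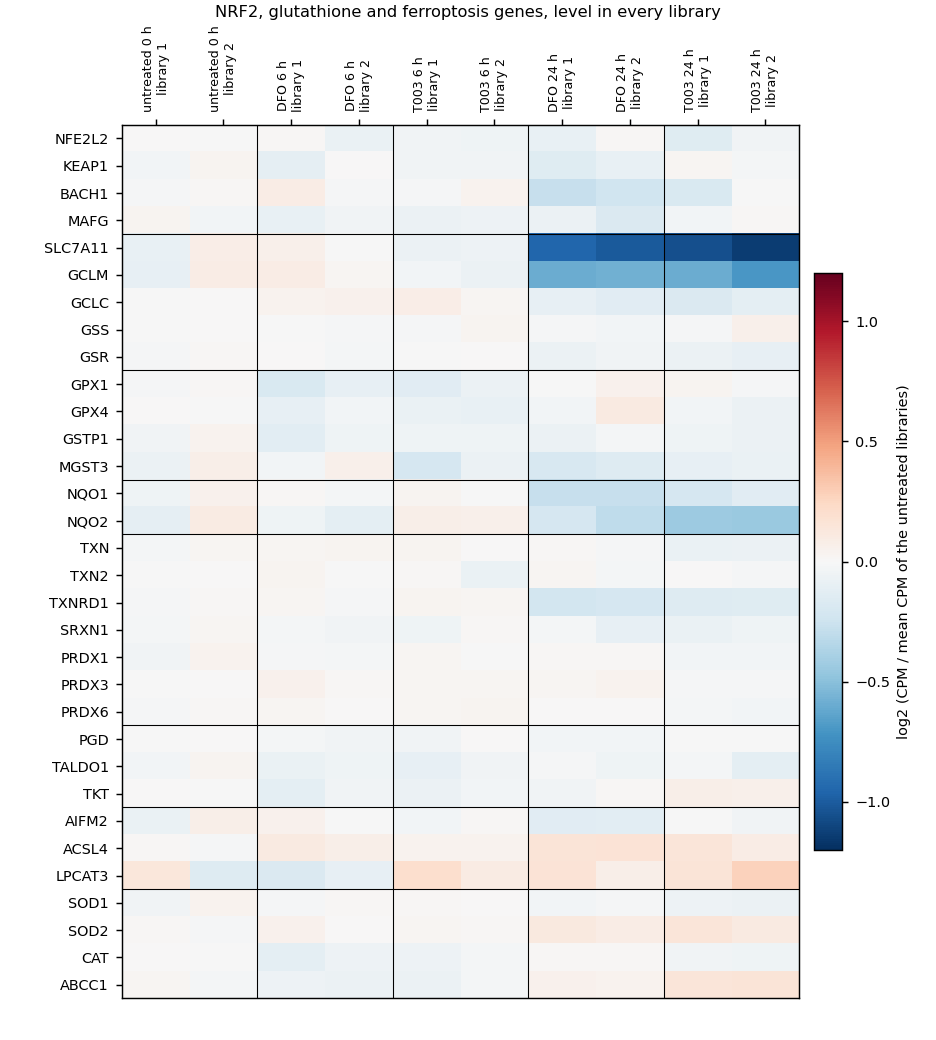
Level of each member with an untreated mean of at least 1 CPM in all 10 libraries, as log2 of CPM over the untreated mean (colour, blue lower and red higher), with columns by time and rows grouped by role. SLC7A11 and GCLM are blue in all 4 libraries at 24 h (SLC7A11 log2 fold change -0.98 with DFO and -1.10 with T003), while most rows stay pale.

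SLC7A11, the subunit of system xc- that exchanges cystine for glutamate (chromosome 4, 138164097 to 138242349, hg38), showed the largest change of the members that passed. SLC7A11 had 74.0 and 83.2 CPM in untreated cells at 0 h, 82.0 and 78.2 CPM after 6 h of DFO and 40.6 and 39.1 CPM after 24 h of DFO. After T003, SLC7A11 had 74.9 and 75.2 CPM at 6 h and 37.95 and 35.6 CPM at 24 h. The 4 libraries at 24 h lay well below all 6 others, and the 6 h libraries overlapped the untreated ones. At 24 h SLC7A11 fell by 49.3% with DFO (log2 fold change -0.98, SE 0.0536, adjusted p = 5.06e-06) and by 53.2% with T003 (log2 fold change -1.10, SE 0.0539, adjusted p = 2.28e-06; edgeR quasi-likelihood test here and below). The antisense gene SLC7A11-AS1, which overlaps it, held counts equal to 1.06% of those of SLC7A11.

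GCLM, the modifier subunit of glutamate-cysteine ligase (chromosome 1, 93885199 to 93909430, hg38, minus strand), was lower in the same libraries. GCLM had 117 and 134 CPM in untreated cells at 0 h, 133.5 and 127 CPM after 6 h of DFO and 82.8 and 83.8 CPM after 24 h of DFO. After T003, GCLM had 122 and 119 CPM at 6 h and 82.75 and 77.4 CPM at 24 h. Again the 24 h libraries did not overlap any of the others. GCLM fell by 33.4% with DFO (log2 fold change -0.59, SE 0.0551, adjusted p = 0.00013) and by 36.0% with T003 (log2 fold change -0.64, SE 0.0552, adjusted p = 4.78e-05).

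The catalytic subunit, GCLC (chromosome 6, 53497341 to 53545101, hg38, minus strand), had smaller log2 fold changes than its partner. GCLC had 94.55 and 94.8 CPM in untreated cells at 0 h, 97.3 and 97.9 CPM after 6 h of DFO and 88.2 and 86.2 CPM after 24 h of DFO. After T003, GCLC had 99.8 and 96.35 CPM at 6 h and 83.9 and 87.3 CPM at 24 h. The 24 h libraries lay below the untreated ones and the 6 h libraries lay above them, by small amounts on both sides. Against untreated cells the 24 h change was -0.12 on the log2 scale with DFO (SE 0.0293, adjusted p = 0.0354) and -0.14 with T003 (SE 0.0293, adjusted p = 0.0082). The DFO call ended under 9 of 18 other settings, among them the fit with the replicate number as a block (adjusted p = 0.0534) and leaving out either untreated library (0.125 and 0.199), either T003 6 h library (0.0514 and 0.0592), the second DFO 6 h library (0.0516) or either DFO 24 h library (0.0948 and 0.24). The T003 call ended without the second untreated library (0.0569) or the first T003 24 h library (0.0717).

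GSS, which adds glycine in the last step of glutathione synthesis, ranged from 86.1 to 91.8 CPM over the 10 libraries and had a log2 fold change of -0.02 with DFO and 0.02 with T003 at 24 h, neither past the threshold. GSR, the reductase that restores oxidised glutathione with NADPH, was among the members with high counts. GSR had 318 and 323 CPM in untreated cells at 0 h, 322 and 315 CPM after 6 h of DFO and 304 and 311 CPM after 24 h of DFO. After T003, GSR had 320.5 and 321 CPM at 6 h and 306 and 298.5 CPM at 24 h. The decrease at 24 h passed with T003 (log2 fold change -0.09, SE 0.0231, adjusted p = 0.0344), and with DFO the log2 fold change was -0.06 (adjusted p = 0.183). The T003 call was lost under the replicate block (adjusted p = 0.0537) and without either untreated library (0.0647 and 0.215), the second T003 6 h library (0.0551) or either T003 24 h library (0.0553 and 0.234). Of the 5 genes for glutathione synthesis and recycling, then, 3 were lower with DFO and 4 with T003, and none was higher. Of all genes tested, 3.27% were lower with DFO and 5.44% with T003. Among the calls counted here, that of GCLC with DFO ended under 9 of 18 other settings and that of GSR with T003 under 7 of 18.

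**Figure D3:**
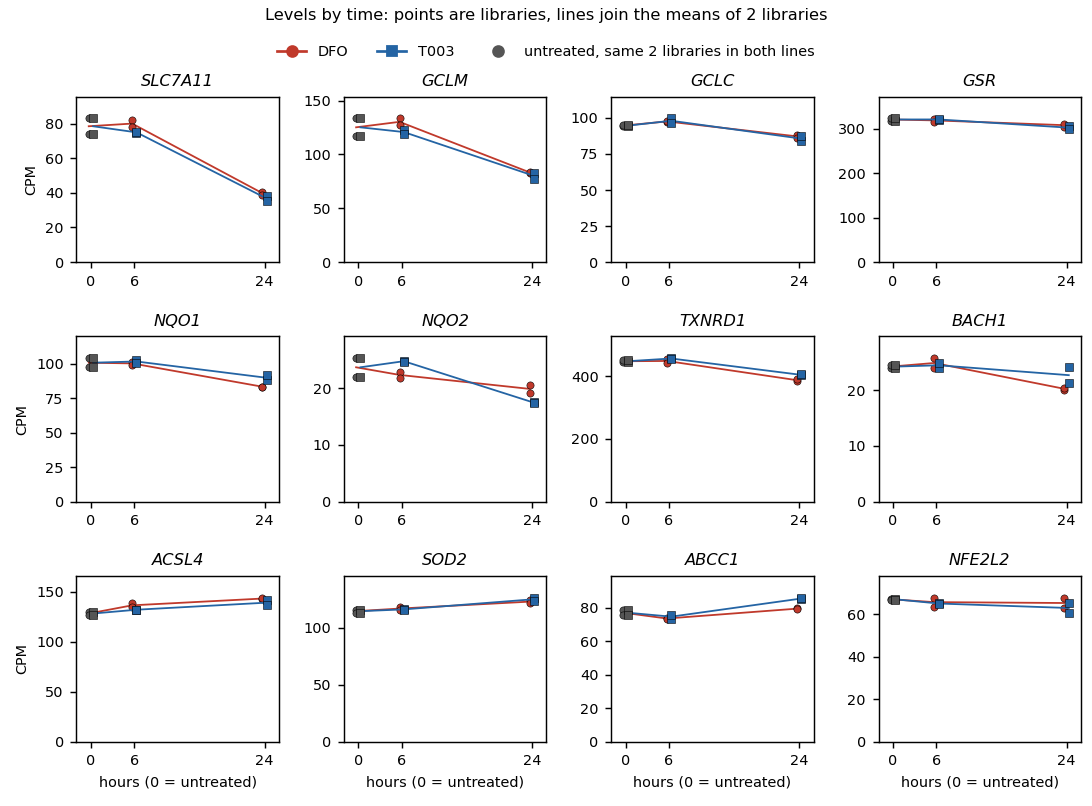
CPM (vertical axes, starting at 0) against hours of treatment (horizontal axes, 0 is untreated) for 12 members. Points are single libraries, lines join the means of 2 libraries, and both lines start at the same untreated libraries. SLC7A11, GCLM and TXNRD1 are near their untreated level at 6 h and lower at 24 h with both agents, whereas NFE2L2 stays between 60.8 and 67.9 CPM.

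TXNRD1, the cytosolic thioredoxin reductase and a selenoprotein (chromosome 12, 104215779 to 104350307, hg38, plus strand), was the member of the thioredoxin system that passed at 24 h. TXNRD1 had 444 and 451 CPM in untreated cells at 0 h, 454 and 442 CPM after 6 h of DFO and 384 and 389 CPM after 24 h of DFO. After T003, TXNRD1 had 457 and 454 CPM at 6 h and 402 and 405 CPM at 24 h. All 4 libraries at 24 h lay below all 6 others, and the DFO libraries lay below the T003 libraries. TXNRD1 fell by 13.5% with DFO (log2 fold change -0.21, SE 0.0216, adjusted p = 0.000239) and by 9.73% with T003 (log2 fold change -0.15, SE 0.0216, adjusted p = 0.00133). Its span also holds RPL18AP3, a ribosomal protein pseudogene with counts equal to 17.5% of those of TXNRD1 that did not pass at 24 h.

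Thioredoxin itself, TXN, did not pass at 24 h against untreated cells. TXN had 232 and 239.5 CPM in untreated cells at 0 h, 239.7 and 242 CPM after 6 h of DFO and 238 and 233 CPM after 24 h of DFO. After T003, TXN had 241.5 and 237 CPM at 6 h and 224 and 224 CPM at 24 h. At 24 h of T003 both libraries were lower than all others, with a log2 fold change of -0.08 against untreated cells that did not pass (adjusted p = 0.062). This T003 change was called under 4 of 18 other settings, which were library totals alone, a filter of 1 CPM, DESeq2 and limma-voom. DFO gave -0.0022 (adjusted p = 0.982). The mitochondrial thioredoxin TXN2, the sulfiredoxin SRXN1 and the peroxiredoxins PRDX1, PRDX3 and PRDX6, which reduce hydrogen peroxide, had 24 h log2 fold changes between -0.06 and 0.03 with DFO and between -0.06 and -0.0033 with T003, none past the threshold. SRXN1 is itself a known NRF2 target, and its 10 libraries ranged from 87.5 to 95.3 CPM.

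NQO1, a quinone reductase and the classical NRF2 target (chromosome 16, 69709401 to 69726560, hg38, minus strand), was lower at 24 h. NQO1 had 97.4 and 104 CPM in untreated cells at 0 h, 102 and 98.9 CPM after 6 h of DFO and 83.45 and 83.35 CPM after 24 h of DFO. After T003, NQO1 had 103 and 101 CPM at 6 h and 87.9 and 91.8 CPM at 24 h. The 24 h libraries lay below the untreated and 6 h ones, the DFO libraries lowest. NQO1 fell by 17.2% with DFO (log2 fold change -0.27, SE 0.0358, adjusted p = 0.0011) and by 10.8% with T003 (log2 fold change -0.17, SE 0.0358, adjusted p = 0.0117). The T003 call ended without the second untreated library (adjusted p = 0.112) or the first T003 24 h library (0.0924).

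NQO2, a related quinone reductase that uses dihydronicotinamide riboside (chromosome 6, 2999894 to 3019755, hg38, plus strand), was lowest with T003. NQO2 had 22.0 and 25.3 CPM in untreated cells at 0 h, 22.8 and 21.8 CPM after 6 h of DFO and 20.6 and 19.1 CPM after 24 h of DFO. After T003, NQO2 had 24.8 and 24.6 CPM at 6 h and 17.5 and 17.4 CPM at 24 h. The 24 h libraries of both agents lay below the untreated libraries, which differed from each other by more than either pair at 24 h. NQO2 fell by 26.3% with T003 (log2 fold change -0.44, SE 0.0691, adjusted p = 0.00199), while with DFO it did not pass (log2 fold change -0.25, SE 0.0688, adjusted p = 0.0543). The DFO change was called under 6 of 18 other settings, among them DESeq2 and limma-voom. The pseudogene HTATSF1P2 lies inside NQO2 with counts equal to 35.1% of those of NQO2, and it was itself lower, by a log2 fold change of -0.63 with DFO (adjusted p = 0.00447) and -0.58 with T003 (adjusted p = 0.00395). The sources used here give no strand setting for the counting, so reads of genes that overlap cannot be told apart.

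Among the regulators, neither NFE2L2 nor KEAP1 passed. NFE2L2 had 67.3 and 67.0 CPM in untreated cells at 0 h, 67.9 and 63.7 CPM after 6 h of DFO and 63.0 and 67.8 CPM after 24 h of DFO. After T003, NFE2L2 had 65.4 and 64.9 CPM at 6 h and 60.8 and 65.3 CPM at 24 h. The ranges overlapped with DFO, and the T003 24 h libraries lay just below the untreated ones. The 24 h log2 fold change of NFE2L2 was -0.04 with DFO (95% interval -0.14 to 0.06) and -0.09 with T003 (95% interval -0.19 to 0.01), and neither passed. KEAP1 had 152 and 159.6 CPM in untreated cells at 0 h, 144.5 and 156 CPM after 6 h of DFO and 141 and 147 CPM after 24 h of DFO. After T003, KEAP1 had 152 and 151 CPM at 6 h and 158 and 153 CPM at 24 h. KEAP1 gave -0.12 with DFO (adjusted p = 0.109), with both libraries below the untreated ones, and -0.0015 with T003 (adjusted p = 0.991). These are RNA levels, and NRF2 protein was not measured.

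BACH1, the repressor, was the regulator that passed, with DFO. BACH1 had 23.9 and 24.5 CPM in untreated cells at 0 h, 25.75 and 24.0 CPM after 6 h of DFO and 20.02 and 20.45 CPM after 24 h of DFO. After T003, BACH1 had 24.0 and 24.9 CPM at 6 h and 21.3 and 24.1 CPM at 24 h. Both DFO 24 h libraries were below all others, and the T003 24 h libraries were spread from below to inside the untreated range. BACH1 fell by 16.4% at 24 h with DFO (log2 fold change -0.26, SE 0.0647, adjusted p = 0.0374) and had a log2 fold change of -0.09 with T003 (adjusted p = 0.441). The DFO call ended without either untreated library (adjusted p = 0.103 and 0.23), either T003 6 h library (0.0585 and 0.062) or either DFO 24 h library (0.174 and 0.142). MAFG ranged from 36.4 to 42.1 CPM and did not pass.

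None of the 6 tested glutathione peroxidases and transferases passed at 24 h against untreated cells. GPX4, the selenoprotein that guards membranes against lipid peroxides, was level to within a few CPM. GPX4 had 49.6 and 49.0 CPM in untreated cells at 0 h, 46.0 and 48.3 CPM after 6 h of DFO and 48.1 and 53.2 CPM after 24 h of DFO. After T003, GPX4 had 46.5 and 46.3 CPM at 6 h and 48.3 and 47.1 CPM at 24 h. The 24 h libraries overlapped the untreated ones with DFO and lay just below them with T003. The 24 h log2 fold change of GPX4 was 0.04 with DFO (95% interval -0.06 to 0.14) and -0.05 with T003 (95% interval -0.15 to 0.06). GPX1, also a selenoprotein, differed between the times of DFO. GPX1 had 63.4 and 64.7 CPM in untreated cells at 0 h, 56.5 and 59.96 CPM after 6 h of DFO and 63.65 and 66.5 CPM after 24 h of DFO. After T003, GPX1 had 58.4 and 60.9 CPM at 6 h and 65.6 and 63.5 CPM at 24 h. All 4 libraries at 6 h were below the untreated and 24 h libraries. The difference passed for 24 h against 6 h of DFO (log2 fold change 0.16, SE 0.0393, adjusted p = 0.0262), a call that ended without the first DFO 6 h library (adjusted p = 0.188) or the second DFO 24 h library (0.178). For 6 h of DFO against untreated cells it did not pass (log2 fold change -0.14, adjusted p = 0.232). GSTP1 ranged from 697 to 784 CPM, with a 24 h log2 fold change of -0.05 with DFO and -0.06 with T003. MGST3 ranged from 10.3 to 12.4 CPM. For GPX7 the 95% interval of the T003 change was -2.36 to 0.20 and for MGST2 -0.74 to 0.50, so their counts were too few to show any but a large change.

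Of the lipid enzymes of ferroptosis, ACSL4, which loads polyunsaturated fatty acids onto coenzyme A and so supplies the lipids that peroxidise, was higher at 24 h. ACSL4 had 129 and 127 CPM in untreated cells at 0 h, 138 and 135 CPM after 6 h of DFO and 142.5 and 144 CPM after 24 h of DFO. After T003, ACSL4 had 132 and 132 CPM at 6 h and 142 and 137 CPM at 24 h. All 4 libraries at 24 h exceeded both untreated ones, and so did all 4 libraries at 6 h. The increase at 24 h was 11.7% with DFO (log2 fold change 0.16, SE 0.0258, adjusted p = 0.00411) and 8.48% with T003 (log2 fold change 0.12, SE 0.0258, adjusted p = 0.0128). The T003 call ended without the second untreated library (adjusted p = 0.0991) or the first T003 24 h library (0.135). AIFM2, which encodes FSP1, a reductase of coenzyme Q that stops lipid peroxidation apart from glutathione, ranged from 41.8 to 48.3 CPM and had a 24 h log2 fold change of -0.13 with DFO (adjusted p = 0.162) and -0.03 with T003 (adjusted p = 0.833). LPCAT3, which places polyunsaturated acyl chains in phospholipids, was low at 6.46 to 8.86 CPM and overlaps EMG1, whose counts were 771% of its own.

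**Figure D4:**
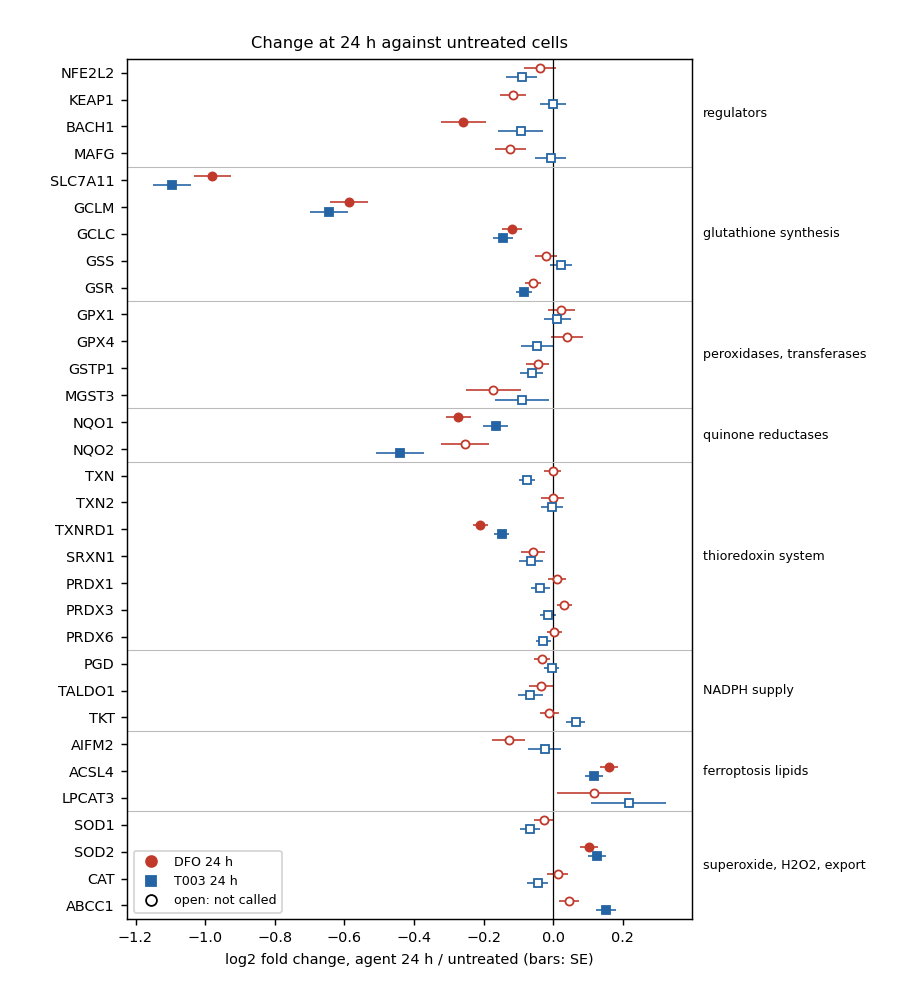
Log2 fold change at 24 h against untreated cells (points, with SE bars) for members with an untreated mean of at least 1 CPM, DFO in red above T003 in blue, filled where the adjusted p is under 0.05. SLC7A11 and GCLM stand apart on the left at -0.98 and -0.59 with DFO and -1.10 and -0.64 with T003, and the filled points on the right are ACSL4, SOD2 and, with T003, ABCC1.

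SOD2 and the exporter ABCC1 were the remaining members that were higher at 24 h. SOD2 had 116 and 113 CPM in untreated cells at 0 h, 118 and 115 CPM after 6 h of DFO and 124 and 122 CPM after 24 h of DFO. After T003, SOD2 had 116 and 116 CPM at 6 h and 126 and 124 CPM at 24 h. The 24 h libraries were above all the others by a narrow margin. SOD2 rose by 7.27% with DFO (log2 fold change 0.10, SE 0.026, adjusted p = 0.0418) and by 9.11% with T003 (log2 fold change 0.13, SE 0.026, adjusted p = 0.00913). The DFO call ended under 10 of 18 other settings, among them scaling by library totals alone (adjusted p = 0.0537) and leaving out either untreated library (0.0753 and 0.237), either T003 6 h library (0.0738 and 0.055), either DFO 24 h library (0.168 and 0.0986) or the first T003 24 h library (0.0545). The T003 call ended without the second untreated library (0.0833) or the first T003 24 h library (0.0907). The genomic span of SOD2 also covers WTAP and ACAT2, with counts equal to 94.5% and 67.9% of those of SOD2. ACAT2 was itself higher with T003, by a log2 fold change of 0.16 (adjusted p = 0.00913), and did not pass with DFO (-0.009, adjusted p = 0.937), while WTAP passed with neither agent (adjusted p = 0.683 with DFO and 0.204 with T003).

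ABCC1, which pumps glutathione conjugates out of the cell, passed at 24 h with T003. ABCC1 had 78.5 and 75.7 CPM in untreated cells at 0 h, 74.0 and 73.3 CPM after 6 h of DFO and 79.9 and 79.15 CPM after 24 h of DFO. After T003, ABCC1 had 73.55 and 75.9 CPM at 6 h and 85.1 and 86.05 CPM at 24 h. The T003 24 h libraries were above all others, and the DFO 24 h libraries were just above the untreated ones. ABCC1 rose by 11.0% with T003 (log2 fold change 0.15, SE 0.0287, adjusted p = 0.00584), a call that ended without the second untreated library (adjusted p = 0.073), and had a log2 fold change of 0.04 with DFO (adjusted p = 0.465). SOD1 and catalase (CAT), which remove superoxide and hydrogen peroxide, had 24 h log2 fold changes of -0.03 and 0.01 with DFO and -0.07 and -0.04 with T003, none past the threshold.

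The enzymes of the pentose phosphate pathway that supply or sustain NADPH did not pass at 24 h against untreated cells. TKT, the transketolase, moved over time with T003. TKT had 543 and 539.5 CPM in untreated cells at 0 h, 500.1 and 525 CPM after 6 h of DFO and 527 and 547 CPM after 24 h of DFO. After T003, TKT had 516.5 and 527.5 CPM at 6 h and 567 and 565 CPM at 24 h. The T003 24 h libraries were highest, and all 4 libraries at 6 h lay below both untreated ones. TKT was higher at 24 h than at 6 h of T003 (log2 fold change 0.12, SE 0.0271, adjusted p = 0.0152), a call that ended when any of those 4 libraries was left out (adjusted p = 0.0516 to 0.162). PGD, the second dehydrogenase of the pathway, ranged from 193 to 198 CPM, and TALDO1, the transaldolase, from 109 to 120.5 CPM.

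At 6 h no member passed with either agent in the edgeR quasi-likelihood test, against 0.0248% of all genes with DFO and 0.0298% with T003. At an unadjusted p under 0.05 there were 6 members with DFO, against 12.4% of all genes, and 1 with T003, against 7.53% of all genes, and DESeq2 called 4 with DFO, among 522 of all genes, and 0 with T003, among 81. The 4 were GPX1, TKT and GSTP1, with edgeR log2 fold changes of -0.14, -0.08 and -0.09, and ACSL4 at 0.09. For SLC7A11 at 6 h the 95% interval of the log2 fold change was -0.09 to 0.14 with DFO and -0.18 to 0.05 with T003, and for GCLM it was -0.06 to 0.18 and -0.17 to 0.07. These intervals do not reach the 24 h changes of the same genes.

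Comparing 24 h with 6 h of the same agent takes no value from the untreated libraries, although they too set the estimate of the spread, and SLC7A11 and GCLM again had the largest changes that passed. In this comparison longer treatment and more hours in culture cannot be told apart. With DFO, 8 members passed, 2 higher and 6 lower, or 23.5% of those tested against 9.89% of all genes (5.29% higher and 4.6% lower). With T003, 11 passed, 3 higher and 8 lower, or 32.4% against 13.5% (7.55% higher and 5.93% lower). Among genes at a mean of 5 CPM or more the shares were 25% of members against 18.1% of genes with DFO, and 34.4% against 24.9% with T003. SLC7A11 was lower at 24 h than at 6 h by a log2 fold change of -1.01 with DFO (adjusted p = 2.23e-06) and -1.03 with T003 (adjusted p = 2.08e-06). GCLM gave -0.64 (adjusted p = 4.39e-05) and -0.59 (adjusted p = 6.28e-05), and TXNRD1 gave -0.21 (adjusted p = 0.000144) and -0.18 (adjusted p = 0.000384), DFO before T003 in each pair. NQO2 was lower at 24 h than at 6 h of T003 (log2 fold change -0.50, SE 0.0691, adjusted p = 0.000747), and TXN was too (log2 fold change -0.10, SE 0.0237, adjusted p = 0.0219). The TXN call ended when any of the 4 T003 libraries was left out (adjusted p = 0.0596 to 0.127). With 1 DFO library left out, 4 members were called for DFO without its second 24 h library and 5 without its first 6 h library. For T003, 6 members were called without its first 6 h library, and 7 without its second 6 h or first 24 h library.

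The agents were then set against each other at the same time, a contrast that takes no value from the untreated libraries, although all 10 libraries set its estimate of the spread. It called 270 genes in all at 24 h, or 194 and 175 with the first or the second untreated library left out. No member differed at 24 h by edgeR's adjusted p, against 1.34% of all genes and 2.66% of those at a mean of 5 CPM or more, with 9 of 34 members at an unadjusted p under 0.05 (13.9% of all genes) and 4 called by DESeq2 among 888 of all genes, all 4 lower with DFO (KEAP1, TXNRD1, TKT and ABCC1). The smallest adjusted p was that of ABCC1, at 79.9 and 79.15 CPM with DFO and 85.1 and 86.05 CPM with T003 (log2 fold change -0.11, SE 0.0287, adjusted p = 0.113, 95% interval -0.17 to -0.04). For SLC7A11 the difference was 0.12 on the log2 scale (95% interval 0.00 to 0.24), and for GCLM 0.06 (95% interval -0.06 to 0.18), so any difference between the agents in these genes was small beside the decrease that each showed. NQO2 was at 20.6 and 19.1 CPM with DFO and 17.5 and 17.4 CPM with T003, which did not pass (log2 fold change 0.19, 95% interval 0.04 to 0.34, adjusted p = 0.242), and neither did NQO1 (-0.11, 95% interval -0.19 to -0.03, adjusted p = 0.19). BACH1 gave -0.16 (95% interval -0.31 to -0.02, adjusted p = 0.28). At 6 h no member and none of all 20125 genes (0%) differed between the agents by edgeR's adjusted p, with 1 member, LPCAT3, and 1334 genes (6.63%) at an unadjusted p under 0.05. DESeq2 called 0 members and 14 genes. Whether the change over time differed between the agents was tested as an interaction of agent and time, and 0 members passed, against 0.0199% of all genes, with 2 members (NQO2 and CAT) at an unadjusted p under 0.05, against 9.2% of all genes.

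**Figure D5:**
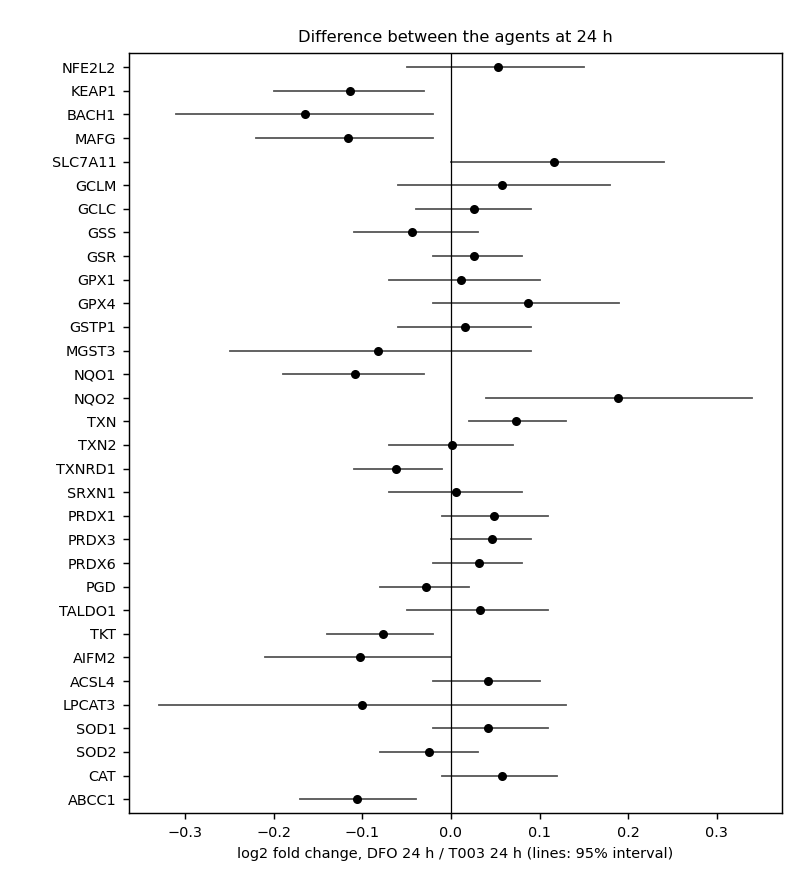
Log2 fold change of DFO over T003 at 24 h (points, with 95% intervals) for members with an untreated mean of at least 1 CPM. Negative values are lower with DFO. No point passed the threshold, and the interval runs 0.00 to 0.24 for SLC7A11 and -0.06 to 0.18 for GCLM.

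Other genes of the same pathways, 147 by name with 124 tested, moved in both directions at 24 h. With DFO 9 were higher and 11 lower (16.1% called, median log2 fold change -0.0056), and with T003 20 were higher and 14 lower (27.4%, median -0.0074), against 6.7% and 12.5% of all genes and 12.6% and 23% of genes at a mean of 5 CPM or more. Of the list, 18 were further NRF2 targets. With DFO 6 were lower and 0 higher (33.3% called), and with T003 6 were lower and 2 higher (44.4%). The median log2 fold change of these targets was -0.11 with DFO and -0.12 with T003. Among them SLC48A1, a haem transporter, was at 20.6 and 20.6 CPM with DFO and 19.9 and 19.9 CPM with T003, against 31.4 and 36.9 CPM in untreated cells, with log2 fold changes of -0.73 and -0.78 (adjusted p = 0.000104 with DFO and 4.7e-05 with T003). OSGIN1, an oxidative stress-induced growth inhibitor, was at 2.62 and 2.20 CPM with DFO and 3.83 and 3.33 CPM with T003, against 5.13 and 6.07 CPM in untreated cells (adjusted p = 4e-04 with DFO and 0.00956 with T003). The taurine carrier SLC6A6 had log2 fold changes of -0.28 with DFO and -0.23 with T003, and the long non-coding RNA LUCAT1 -0.51 and -0.41, all past the threshold. The OSGIN1 call with T003 ended without the second untreated or the second T003 24 h library (adjusted p up to 0.102).

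Of 14 further regulators of the NRF2 pathway, 1 was higher and 2 lower with DFO (21.4% called). With T003, 3 were higher and 2 lower (35.7%). The shares were 6.7% and 12.5% of all genes tested, and 12.6% and 23% of genes at a mean of 5 CPM or more. MAFK, a small MAF partner of NRF2, rose by 0.28 on the log2 scale with DFO and 0.39 with T003. SQSTM1, the autophagy receptor that binds KEAP1, had log2 fold changes of -0.26 with DFO and -0.15 with T003, and SYVN1, a ubiquitin ligase that acts on NRF2, -0.16 and -0.10. All of these passed the test. DDI2, a protease that activates the related factor NFE2L1, passed with T003 (0.17). The MAFK call with DFO ended without the second untreated or the second DFO 24 h library (adjusted p up to 0.0928). The calls of SYVN1 with DFO and of SQSTM1 with T003 ended without at least 3 of the 4 libraries compared, 1 at a time (up to 0.0923 and 0.261), and that of SYVN1 with T003 under 15 of 18 other settings (up to 0.283).

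The shares of all genes tested that were called at 24 h were 6.7% with DFO and 12.5% with T003. Among genes at a mean of 5 CPM or more they were 12.6% and 23%. Of 23 further genes of glutathione and cysteine metabolism, 2 were higher and 1 lower with DFO (13% called). With T003, 4 were higher and 1 lower (21.7%), so both shares lay near those of genes at 5 CPM or more. The lower one was SLC3A2, the heavy chain that pairs with SLC7A11, at 199.6 and 202 CPM with DFO and 222 and 220.3 CPM with T003, against 235 and 245 CPM in untreated cells (log2 fold change -0.26, SE 0.0291, adjusted p = 0.000438 with DFO; log2 fold change -0.12, SE 0.0291, adjusted p = 0.0224 with T003). Its DFO libraries were below its T003 libraries, and that difference also passed (log2 fold change -0.14, SE 0.0292, adjusted p = 0.0497), though not under 12 of 18 other settings (adjusted p up to 0.259). The SLC3A2 call with T003 ended without the second untreated or either T003 24 h library (up to 0.218). GLRX2, a mitochondrial glutaredoxin, rose with both agents (0.28 with DFO and 0.34 with T003), MAT2A, which makes S-adenosylmethionine, with DFO (0.13) and the glyoxalase GLO1 with T003 (0.13). In the thioredoxin family, 16 further genes gave 1 higher with DFO (6.25% called), and 2 higher and 1 lower with T003 (18.8%). Neither share lay above that of genes at a mean of 5 CPM or more. TXNIP, which binds and inhibits thioredoxin, was at 69.3 and 68.9 CPM with DFO and 84.6 and 87.0 CPM with T003, against 66.6 and 69.3 CPM in untreated cells. TXNIP passed with T003 (log2 fold change 0.34, SE 0.0291, adjusted p = 4.91e-05) and differed between the agents (log2 fold change -0.31, SE 0.0291, adjusted p = 0.0017). PRDX4, the peroxiredoxin of the endoplasmic reticulum, rose by 0.09 on the log2 scale with DFO and 0.11 with T003, and the sestrin SESN1 had -0.23 with T003, all past the threshold. Left out 1 at a time, libraries of the compared groups ended the calls of GLRX2, MAT2A and PRDX4 with DFO. The same held for GLRX2, GLO1, PRDX4 and SESN1 with T003. Those DFO calls also ended with the compared groups alone, and that of PRDX4 ended under 8 of 18 other settings, among them no filter. The SESN1 call with T003 also ended under the replicate block.

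At 24 h, 6.7% of all genes tested were called with DFO and 12.5% with T003. Of genes at a mean of 5 CPM or more, 12.6% and 23% were called. For NADPH supply, 2 of 14 further genes were higher and 1 lower with either agent (21.4% called with each). The mitochondrial malic enzyme ME2 rose (0.27 on the log2 scale with DFO and 0.22 with T003), as did RPIA, ribose-5-phosphate isomerase (0.09 and 0.10). The RPIA call with DFO ended under 13 of 18 other settings, among them library totals alone, no filter, a filter of 1 CPM and the replicate block (adjusted p up to 0.221), and that with T003 under 8 of 18, among them library totals alone and no filter (up to 0.18). Of 25 further ferroptosis genes, 2 were higher and 2 lower with DFO (16% called). With T003, 5 were higher and 3 lower (32%), TFRC being one of those higher with both agents. CARS1, cysteinyl-tRNA synthetase, had log2 fold changes of -0.24 with DFO and -0.30 with T003, both past the threshold. SCD, which makes monounsaturated fatty acids, rose by 0.12 with DFO and 0.30 with T003 on the log2 scale and differed between the agents (DFO over T003 -0.19, adjusted p = 0.00257). DHCR7, the last enzyme of cholesterol synthesis, was at 123 and 128 CPM with DFO and 161 and 158 CPM with T003, against 117 and 121 CPM in untreated cells, and differed between the agents (DFO over T003 -0.35, adjusted p = 0.00122). With SLC3A2, TXNIP and SAT1, a polyamine acetyltransferase named here after its values were seen (DFO over T003 -0.24, adjusted p = 0.0497), these were the 5 of 124 genes called between the agents at 24 h, all lower with DFO. They are 4.03% of the list, against 1.34% of all genes and 2.66% of those at a mean of 5 CPM or more. The SAT1 call ended under 14 of 18 other settings (adjusted p up to 0.277), and that of SCD without the second T003 24 h library (0.0591). Among 15 genes of selenoprotein synthesis, 1 was higher with DFO (6.67% called), and 2 were higher and 1 lower with T003 (20%). Neither share lay above that of genes at a mean of 5 CPM or more (12.6% and 23%). SEPHS2, selenophosphate synthetase, rose with both agents (0.23 with DFO and 0.23 with T003). With T003 SECISBP2, which reads the selenocysteine element, was higher (0.12) and LRP8, which takes up selenoprotein P, lower (-0.17). The T003 call of SECISBP2 ended under 9 of 18 other settings, among them library totals alone, no filter and the compared groups alone. That of LRP8 ended without the first T003 24 h library.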

How the data were processed

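RNA was extracted with Qiazol, and TruSeq Standard mRNA libraries were read as 101 bp pairs on a NovaSeq-6000, per the labels' protocols. The submitters' processing notes name fastp 0.21.0, HISAT2 2.2.1, StringTie 2.1.6 and RefSeq hg38, and give no strand setting. The deposited values are estimated counts per gene symbol, written as whole numbers by the authors. From them, edgeR 4.0.16 (R 4.3.3, limma 3.58.1) was run on all 10 libraries in 1 model with group as the only term: filterByExpr with a minimum count of 10, TMM scaling (factors 0.991 to 1.01), the quasi-likelihood test, and Benjamini-Hochberg adjustment over 20125 genes, called at an adjusted p under 0.05. With 2 libraries per group, 5 residual degrees of freedom were shared by the 5 groups, and each library's value is given in place of a mean and SD. CPM are on TMM-scaled library sizes, with levels per kb from MANE Select transcript lengths (GENCODE v44). Intervals are 95% intervals of the fit. DESeq2 1.42.0, limma-voom, other scalings and filters, a replicate block, the compared groups alone and leaving out each library were alternatives. The comparison with genes at a mean of 5 CPM or more was added after seeing the data. Members and lists were chosen with earlier results of these data known. Values in every library are given for members called in any comparison and for NFE2L2, KEAP1, BACH1, GCLC, GPX4, ACSL4, NQO1 and HMOX1, and up to 4 called genes with the smallest p are named from each list of other genes, and some genes of these lists are not reported here. Gene positions are from RefSeq, and promoter stretches are RefSeq sequence of GRCh38.p14.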

Additional observations from a re-analysis of the deposited data

Results flagged for a closer look

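For 19 values the level with an agent differed between 6 h and 24 h. Both times are set against the same untreated libraries. The difference is therefore the contrast of the 24 h libraries with the 6 h libraries (edgeR quasi-likelihood test, adjusted p under 0.05). Without untreated cells at 6 h or 24 h, this contrast cannot separate a change in the effect of the agent from the hours in culture. With DFO the log2 fold change of 24 h over 6 h was -1.01 for SLC7A11, -0.64 for GCLM, -0.30 for BACH1, -0.27 for NQO1, -0.21 for TXNRD1 and -0.16 for GCLC, which were lower at 24 h, and 0.16 for GPX1 and 0.11 for ABCC1, which were higher. With T003 it was -1.03 for SLC7A11, -0.59 for GCLM, -0.50 for NQO2, -0.20 for GCLC, -0.18 for NQO1, -0.18 for TXNRD1, -0.10 for TXN and -0.09 for GSR, which were lower at 24 h, and 0.20 for ABCC1, 0.12 for TKT and 0.11 for SOD2, which were higher. The call of BACH1 with DFO ended without the first 6 h library or either 24 h library (adjusted p = 0.13, 0.0913 and 0.0705), that of GPX1 without the first 6 h or second 24 h library (0.188 and 0.178), and that of ABCC1 without any of the 4 DFO libraries or the first T003 6 h library (0.0547 to 0.122). GCLC ended without the second DFO 24 h library (0.0618). With T003, NQO1 ended without the first 6 h or first 24 h library (0.0576 and 0.0608), GSR under the replicate block (0.0502) and without either 6 h library or the second 24 h library (0.103, 0.145 and 0.206), and SOD2 without either 6 h library or the first 24 h library (0.131, 0.096 and 0.174).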

How the results depend on the processing

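Of the 37 member calls over the 8 comparisons, 666 values under alternatives were computed, of which 594 kept the direction and the call, 72 kept the direction only and 0 reversed. SLC7A11, GCLM and TXNRD1 with both agents, NQO1 and ACSL4 with DFO, and NQO2 with T003 were called at 24 h against untreated cells under all 18 alternatives. Of 4214 values for member results that were not called, 32 passed under an alternative. Of 48 calls of pathway genes outside the members that were followed in the same way, 25 were kept under all 18 alternatives and none reversed. With DESeq2 in place of edgeR, 4 members were called at 6 h of DFO and 4 between the agents at 24 h, against 0 in both. Leaving out each library in turn gave 5 to 8 members called at 24 h of DFO and 4 to 10 at 24 h of T003, 4 to 9 for 24 h against 6 h of DFO and 6 to 12 for 24 h against 6 h of T003, and 0 elsewhere. With the replicate number as a block, 7 members were called at 24 h of DFO and 9 at 24 h of T003, with 8 and 10 for 24 h against 6 h, all of them also called without it. The differences between the first and second library had correlations of -0.344 to 0.325 over 10 pairs of groups. Whether same-numbered libraries share a culture or a batch cannot be told from these values. Over all genes, 5 were called at 6 h of DFO, against 12 with library totals, 16 with no filter, 522 with DESeq2, 25 with limma-voom, 2 with the block and 1 to 11 with a library left out. At 6 h of T003, 6 were called, against 81 with DESeq2, 1 with the block and 1 to 13 with a library left out. Counts at 24 h were 1349 with DFO (851 from the compared groups alone, 431 to 1383 with a library left out) and 2524 with T003 (1084 to 2544). Between the agents, 0 were called at 6 h (14 with DESeq2, 0 to 4 with a library left out) and 270 at 24 h (446 with a filter of 1 CPM, 888 with DESeq2, 117 with the block, 55 from the compared groups alone, 14 to 229 with a library left out). For 24 h against 6 h they were 1991 with DFO (1293 from the compared groups alone, 950 to 1824) and 2714 with T003 (1336 to 2739). The cause of these differences was not tested, apart from there being fewer libraries in some fits. Other scalings moved the median of all genes by at most 0.0155 on the log2 scale. With 2 libraries per group, small changes of members may go undetected, and counts of 9 to 80 limit GPX7 and MGST2.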
